A study of Mus musculus with 8 samples.

Results

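Colony stimulating factors are the cytokines under which blood progenitors become macrophages and granulocytes and mature cells of these lines survive. The 8 genes described here are 4 ligand genes (Csf1, Il34, Csf2 and Csf3) and 4 receptor genes (Csf1r, Csf2ra, Csf2rb and Csf3r), out of 37074 gene names on the array. They were taken by gene name, which gave 15 probes of the 56605 non-control probes. In 7 of the 8 genes at least 1 probe was bright enough to be tested, and Csf3 was not among them.

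The lungs came from male bone marrow chimeras aged 22 weeks and were taken 72 hours after an injection of diphtheria toxin, from 2 mice per group with 1 array per mouse. In LL both the donor and the recipient were LysM-DTR. In WL the donor was wild type and the recipient LysM-DTR, in LW the donor was LysM-DTR and the recipient wild type, and in WW both were wild type. LysM-DTR mice carry the receptor for diphtheria toxin under the control of the lysozyme M gene (Lyz2), which is expressed in myeloid cells and also by alveolar type 2 cells. All 4 groups received the toxin, and no array is of a mouse without it, so the toxin and the genotype cannot be told apart. How much of the recipient's own blood and lung macrophages remained in a chimera is not given in the sources used here.

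Csf1 encodes macrophage colony stimulating factor and Il34 the other ligand of its receptor, a tyrosine kinase encoded by Csf1r that marks monocytes and macrophages. Csf2 encodes granulocyte-macrophage colony stimulating factor, which in mouse and human lung is needed for alveolar macrophages to mature and clear surfactant. Its receptor pairs an alpha subunit that binds the ligand (Csf2ra) with a signalling beta subunit (Csf2rb) that also serves interleukin 3 and interleukin 5. Csf3 encodes granulocyte colony stimulating factor, which drives the production of neutrophils through Csf3r.

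A level below is the log2 of a probe's signal minus the 75th percentile of its array, so that 0 is the brightness of the probe at that percentile. It compares mice for 1 probe and does not rank genes. That percentile lay between intensities of 208.6 and 324.4, and between 66.3 and 72.3% of spots on an array stood well above background. LL and WL shared a column of the slide, LW and WW the other column, and the LysM-DTR and wild-type donors held different places within each column, so slide position and genotype cannot be told apart. Lyz2 was at 4.67 and 4.94 in LL, 8.70 and 7.36 in WL, 8.99 and 8.84 in LW, and 9.05 and 9.09 in WW. The WL mice were less alike (Pearson r 0.96 across genes, which are not independent replicates) than the pairs of the other groups (0.99 in each).

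In lungs with the toxin receptor on both sides, the receptor genes Csf2ra and Csf1r were lower than in wild-type chimeras, and no ligand gene passed the test. Between LL and WW 2 of the 7 tested genes passed limma's test at an adjusted p under 0.05, both lower in LL, where 3.13% of all 25830 genes passed, 1.21% higher and 1.92% lower. Csf2ra and Csf1r were also the 2 genes called in LL against WL (1.72% of all genes, 1.15% lower) and in LL against LW (2.8% of all genes, 1.51% lower). Neither WL against WW nor LW against WW had a call among the 7 in limma's test, beside 0.00387% and 0.0542% of all genes called, and none had an unadjusted p under 0.05 there, against 8.18% and 2.2% of all genes. In WL against LW none was called either (1 had an unadjusted p under 0.05, against 8.27% of all genes, and 0.0465% of all genes were called), nor in the interaction of donor and recipient genotype (2 had an unadjusted p under 0.05, against 9.14% of all genes, and 0.0619% of all genes were called). The values of LL and WW did not overlap in 5 of the 7 genes, against 69.5% of all genes, so that this count is no result about the 7.

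**Figure D1:**
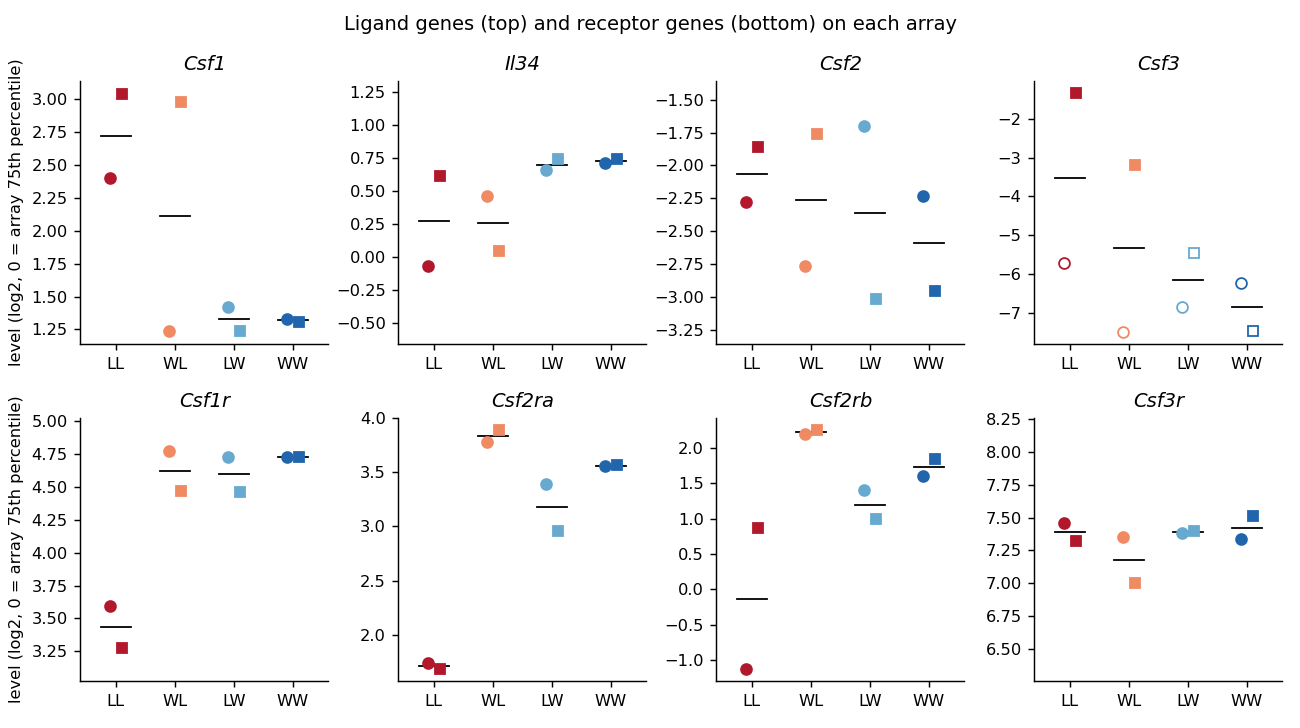
Level of each gene on each array (log2 signal minus the array's 75th percentile, each panel with its own axis), ligand genes above and receptor genes below, for LL, WL, LW and WW. Circles are replicate 1 and squares replicate 2, bars are group means, and open symbols are not well above background. Csf2ra and Csf1r are lowest in both LL mice, and Csf1 is high in both LL mice and in 1 WL mouse.

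Csf2ra had a level of 1.74 and 1.69 in LL, 3.77 and 3.89 in WL, 3.39 and 2.96 in LW, and 3.55 and 3.56 in WW. Both LL mice lay far under all other mice, which stayed within 1 log2 unit of each other. Csf2ra fell by 1.85 on the log2 scale in LL against WW (SE 0.176, n = 2 mice per group, limma adjusted p = 0.0122), which is 3.6-fold lower. It was also lower in LL than in WL, by 2.12 (-2.12, SE 0.176, limma adjusted p = 0.00879), and than in LW (-1.46, SE 0.176, limma adjusted p = 0.0201). These 3 comparisons share the LL mice.

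With the receptor on 1 side the order of the Csf2ra means was WL 3.83 ± 0.08, WW 3.56 ± 0.01 and LW 3.17 ± 0.30 (SD, n = 2 mice each). No neighbours in that order overlapped, and no step between them passed the test: WL against WW was 0.27 (limma adjusted p = 0.487), LW against WW was -0.38 (limma adjusted p = 1), and WL against LW was 0.66 (SE 0.176, limma adjusted p = 0.487). The interaction, which is the LL difference minus the sum of the WL and LW differences from WW, was -1.74 (SE 0.25) and did not pass (limma adjusted p = 0.0869), but passed when WL replicate 2 was left out, where 8.55% of all genes passed. The LL against WW call was lost without either LL mouse (adjusted p 0.0874 and 0.0592) and without either WW mouse (0.0984 and 0.0948), where 1 mouse stood for its group, and the difference itself moved only between -1.87 and -1.82. The call against WL was lost without LL replicate 1 (adjusted p 0.0774) and with the LL and WL arrays alone (0.118), and the call against LW was lost without any 1 LL, LW or WW mouse.

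The Csf2ra probe lies on chromosome 19, minus strand, 61300336 to 61300395 of mm9, and is the only probe of the gene on the array. Spi1 (PU.1), the transcription factor of macrophage identity whose binding sites hold the letters GAGGAA, also fell in LL, as given further on, so the promoter of Csf2ra is shown. RefSeq's table for GRCm38.p6 held promoters of 4 of the 8 genes, each from 250 bases before to 50 bases after the start. The stretch shown ends 15 bases after the start of Csf2ra, is on the minus strand at chr19:61228404-61228668, and has the motif in capitals:
Csf2ra promoter: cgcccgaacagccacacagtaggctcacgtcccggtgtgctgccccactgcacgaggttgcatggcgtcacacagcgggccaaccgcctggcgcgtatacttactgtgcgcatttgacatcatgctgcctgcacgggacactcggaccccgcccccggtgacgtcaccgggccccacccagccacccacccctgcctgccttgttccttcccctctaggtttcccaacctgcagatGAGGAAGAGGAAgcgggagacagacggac
GAGGAA was searched on both strands and occurs 2 times in a row on the gene's own strand, first bases at -14 and -8 from the start. At least 1 match stood in 28.3% of the 32851 promoters of the table and at least 2 in 4.82%, so a match is common, and a match is a description of letters and not a binding site. Csf3r had 1 match and Csf1 and Csf2 had none. TGANTCA, a site of AP-1, occurred in none of these promoters (7.81% of all), and TTGCNNAA, a site of C/EBP factors, occurred only in that of Csf2 (10.8% of all). The NF-kB motif was found 1 time each before Csf1 and Csf3r (8.46% of all).

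Csf1r, the receptor of both Csf1 and Il34, had a level of 3.59 and 3.28 in LL, 4.77 and 4.47 in WL, 4.73 and 4.46 in LW, and 4.73 and 4.73 in WW with its brighter probe. The LL mice were again the lowest of all and did not overlap any other group, while WL, LW and WW overlapped each other. Csf1r fell by 1.29 in LL against WW (SE 0.191, limma adjusted p = 0.0286), which is 2.45-fold lower. Against WL the difference was -1.19 (SE 0.191, limma adjusted p = 0.0463) and against LW it was -1.16 (SE 0.191, limma adjusted p = 0.0405). Among the groups with the receptor on 1 side, WL against WW was -0.11 and LW against WW -0.13. The interaction was -1.05 (SE 0.271) and did not pass (limma adjusted p = 0.285).

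The fall of Csf1r rests on 1 of its 2 probes. The brighter one lies on chromosome 18, plus strand, 61290725 to 61290784 of mm9. The other, upstream at 61278661 to 61278720, was above background on all 8 arrays and read 0.55 and 0.65 in LL, 0.60 and 0.58 in WL, 0.53 and 0.51 in LW, and 0.61 and 0.65 in WW. All 8 mice lay close together with this probe, and its LL against WW difference was -0.03 (SE 0.135, limma adjusted p = 0.895 in a fit of every kept probe). Both are listed for the same RefSeq transcript, and the exon that each one reads was not determined here. The call of the brighter probe was also lost without either LL mouse (adjusted p 0.113 and 0.156), either LW mouse (0.0696 each) or either WW mouse (0.176 and 0.166), with differences from -1.45 to -1.14, and the calls against WL and LW were lost without any 1 of these mice too.

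**Figure D2:**
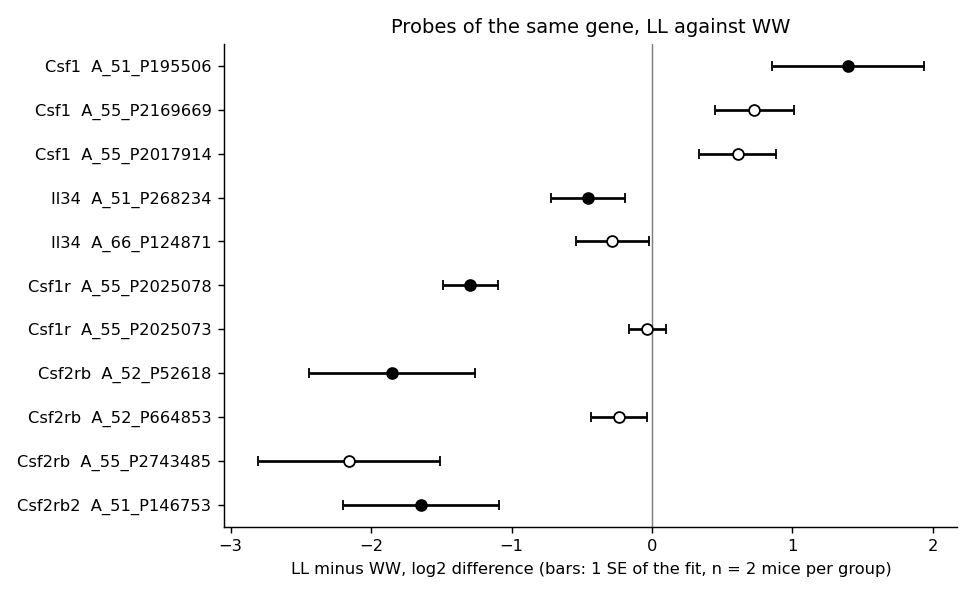
Difference between LL and WW (log2) for each tested probe of the genes with more than 1 probe, and for Csf2rb2, with bars of 1 SE of the fit (n = 2 mice per group); filled points are the probes that stand for the gene. Csf1r and Csf2rb each have a probe near 0 beside a lower one, and the 3 probes of Csf1 lie above 0.

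Csf2rb, the beta subunit, had a level of -1.12 and 0.87 in LL, 2.19 and 2.25 in WL, 1.40 and 1.0 in LW, and 1.60 and 1.85 in WW. Both LL mice were under all others, but they differed from each other by 1.99 on the log2 scale. The LL against WW difference was -1.85 (SE 0.594, limma adjusted p = 0.142) and that against WL -2.35 (SE 0.594, limma adjusted p = 0.142), and neither passed. Without LL replicate 2 they were -2.84 and -3.34, with adjusted p of 0.0251 and 0.02. Without LL replicate 1 they were -0.86 and -1.36, with adjusted p of 0.254 and 0.178. The order of the means was WL, WW, LW and LL without overlap between any 2 groups, as for Csf2ra, and no step between WL, WW and LW passed.

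In mouse, Csf2rb has a close relative on the same chromosome, Csf2rb2, the beta subunit used by interleukin 3 alone. The probe that stands for Csf2rb (chromosome 15, 78181168 to 78181227 of mm9) and that of Csf2rb2 (78113126 to 78113185) share a stretch of 31 bases with 28 identical. The last 30 of these bases are printed because they show how alike the targets are, with the mismatches in capitals:
Csf2rb probe, part: gcagatcaaAtgtCccttggtctCtgttca
Csf2rb2 probe, part: gcagatcaaGtgtTccttggtctAtgttca
Csf2rb2 read -1.55 and 0.28 in LL, 1.54 and 1.66 in WL, 0.73 and 0.21 in LW, and 0.90 and 1.12 in WW, and in all 4 groups its higher mouse was also the higher one in Csf2rb. Its LL against WW difference was -1.65 (SE 0.561, limma adjusted p = 0.155). How much of either signal comes from the other gene was not measured, and the values of both are uncertain for that reason.

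The other 2 tested probes of Csf2rb went apart, so their sequences are given whole. The first is listed for transcripts of both Csf2rb and Csf2rb2 (78179450 to 78179509), and the second is listed for Csf2rb alone and spans 263 bases of the genome, which places it across a splice junction (78176856 to 78177118):
Probe of both genes: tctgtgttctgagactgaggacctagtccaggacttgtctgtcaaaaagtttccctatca
Probe of Csf2rb alone: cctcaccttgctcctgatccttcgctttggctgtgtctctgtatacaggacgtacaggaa
The probe of both genes read -4.65 and -2.41 in LL, -1.07 and -1.26 in WL, -1.88 and -2.10 in LW, and -1.42 and -1.31 in WW. The probe across the junction read -1.59 and -1.29 in LL, -1.38 and -1.45 in WL, -1.47 and -1.56 in LW, and -0.99 and -1.43 in WW. The first was low in both LL mice, with a difference from WW of -2.16 (SE 0.649, limma adjusted p = 0.129), and in the second the LL mice overlapped each other group, with a difference from WW of -0.23 (SE 0.202, limma adjusted p = 0.484). A further Csf2rb probe, drawn from a cDNA clone, was above background on 3 arrays only and was not tested.

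Csf3r, the granulocyte receptor, was bright and flat, at 7.46 and 7.32 in LL, 7.35 and 7.0 in WL, 7.38 and 7.40 in LW, and 7.33 and 7.51 in WW. The LL and WW mice overlapped, and the difference was -0.04 (SE 0.17, limma adjusted p = 0.909). No comparison of Csf3r passed, and its largest difference, WL against WW, was -0.25 (SE 0.17, limma adjusted p = 0.497). Beside it, none of the 18 neutrophil markers passed between LL and WW (5 had an unadjusted p under 0.05, 4 of them higher, against 24.8% of all genes). Their summed signal, in units of the array's 75th percentile, was 78.5 and 283 in LL, 70.0 and 218 in WL, 82.8 and 174 in LW, and 127 and 263 in WW, so the mice of a group differed by more than the groups. S100a9 gave 56.2% of this sum.

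The sequence of the only Csf3r probe (chromosome 4, plus strand, 125721478 to 125721537 of mm9) limits what this flat level says about the gene. Its last 17 bases lie within the B1 repeat, a short element spread in very many copies through the mouse genome and through transcripts that contain it. How far the repeat reaches into the bases before them was not determined here. The end of the probe is shown with that run in capitals:
Csf3r probe, last 30 bases: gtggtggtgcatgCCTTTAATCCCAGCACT
Only 5 of the 56605 probes (0.009%) hold these 17 bases in either direction, and the Csf3r probe is the only one among the 15 described here. This counts exact matches alone, and probes with other parts or altered copies of the repeat were not counted. The 3 other probes with the run in the same direction belong to other genes and were above background on all arrays, as were 60.4% of all probes. The mean levels of these 3 probes were 1.65, 7.45 and 9.11, beside 7.34 for the Csf3r probe and a median of -2.81 over all probes. Their LL against WW differences lay between -0.09 and -0.004, beside -0.04 for Csf3r. The 1 probe with the run in the opposite direction differed by -0.26. Whether the Csf3r probe reads repeat-bearing transcripts was not tested.

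Csf1 was the ligand gene with the largest LL against WW difference. Its level was 2.40 and 3.04 in LL, 1.24 and 2.98 in WL, 1.42 and 1.23 in LW, and 1.33 and 1.31 in WW. Both LL mice and 1 WL mouse lay above all LW and WW mice, and the other WL mouse lay at their level. The LL against WW difference of 1.40 (SE 0.544, 2.63-fold) did not pass (limma adjusted p = 0.188), and neither did that against LW (1.39, limma adjusted p = 0.182). With the LL and WW mice alone Csf1 passed at a limma adjusted p of 0.0268, where 24.2% of all genes passed, and it passed at 0.0112 without either or both WL mice, where 32.1% did. WL against WW was 0.79 (SE 0.544, limma adjusted p = 0.496) and 1.66 (limma adjusted p = 0.0113, with 37.7% of all genes called) without WL replicate 1, while LW against WW was 0.01.

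The probe that stands for Csf1 lies on chromosome 3, minus strand, 107544333 to 107544392 of mm9, and is listed for 2 RefSeq transcripts. Probes at 107548521 to 107548580 and at 107548550 to 107548609 are listed for another transcript and overlap each other. The first of these read -0.12 and 0.47 in LL, -0.67 and -0.06 in WL, -0.21 and -0.47 in LW, and -0.57 and -0.54 in WW. It was highest in the same LL mouse, and its difference from WW was 0.73 (SE 0.281, limma adjusted p = 0.186), with 0.61 (SE 0.274) for the probe that overlaps it.

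Il34, made in tissues such as skin and brain and the other ligand of Csf1r, read -0.07 and 0.62 in LL, 0.46 and 0.04 in WL, 0.66 and 0.74 in LW, and 0.71 and 0.74 in WW. With this brighter probe all mice with a LysM-DTR recipient were below all mice with a wild-type recipient, as in 8.85% of all genes. The differences from WW were -0.45 in LL (SE 0.261, limma adjusted p = 0.314) and -0.47 in WL (SE 0.261, limma adjusted p = 0.486), and did not pass. The values of WL and WW did not overlap in 3 of the 7 genes, Il34, Csf2ra and Csf2rb, against 42% of all genes. The dimmer Il34 probe differed by -0.28 between LL and WW, and with it LL replicate 2 (-2.07) lay above LW replicate 2 and WW replicate 2 (-2.19 each). Both probes lie on chromosome 8, minus strand, the brighter at 113265835 to 113265894 of mm9.

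Csf2 had a level of -2.27 and -1.86 in LL, -2.77 and -1.76 in WL, -1.70 and -3.02 in LW, and -2.23 and -2.95 in WW. All groups overlapped, and the LL against WW difference was 0.52 (SE 0.541, limma adjusted p = 0.555). The spread within LW alone was 0.93 (SD, n = 2), and a difference within that spread could not be resolved. The probe is listed on chromosome 11, minus strand, at 54060772 to 54060799 of mm9, which covers 28 of its 60 bases. Csf3, on the same chromosome (98564614 to 98564673), was well above background on 1 LL and 1 WL array only and at background on the other 6.

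Of the 7 genes, Csf1 differed most between the WL mice. WL replicate 2 exceeded WL replicate 1 by 1.74 in Csf1 and by 1.01 in Csf2, and only 4.86% and 17.3% of all genes differed between these mice by at least as much. In the receptors the same subtraction gave 0.12 for Csf2ra, 0.07 for Csf2rb, -0.31 for Csf1r and -0.35 for Csf3r, and 59.0% to 91.5% of genes differed by at least as much. Il34 was at -0.42 (52.0% of genes). The 2 mice are not a test, and these values describe them only.

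**Figure D3:**
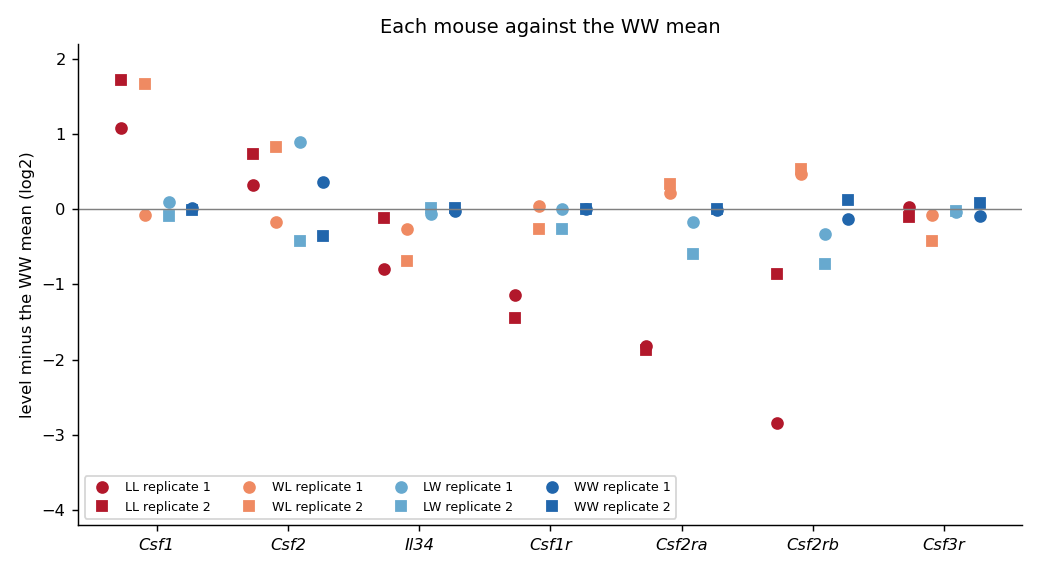
Level of each tested gene in each mouse minus the WW mean (log2), with LL, WL, LW and WW from left to right for each gene; circles are replicate 1 and squares replicate 2. WL replicate 2 sits beside the LL mice in Csf1, 1.66 above the WW mean. In Csf2ra and Csf2rb it lies close to WL replicate 1 and is the highest of all mice.

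The genes around these receptors were taken from 3 lists. Of 33 receptor partners and signalling genes 32 were tested, and in LL against WW none was called higher and 3 lower (median -0.25, against 0.03 over all genes). Of all genes 1.92% were called lower there. Tyrobp, the adaptor DAP12 that signals beside Csf1r in macrophages, had a level of -0.50 and 1.1 in LL, 3.90 and 4.30 in WL, 3.31 and 3.12 in LW, and 3.57 and 3.92 in WW, and fell by 3.45 in LL against WW (SE 0.496, limma adjusted p = 0.0272). Ptpn6, the phosphatase SHP-1 that restrains cytokine receptors, fell by 2.01 (SE 0.242, limma adjusted p = 0.0177), and Inpp5d, the lipid phosphatase SHIP1, by 0.83 (SE 0.14, limma adjusted p = 0.0406). Ptpn6 and Tyrobp were also lower in LL than in WL (-1.97 and -3.80) and than in LW (-1.84 and -2.92), both called. Janus kinases, STAT factors and SOCS feedback genes had no call in LL against WW, with Socs3, chosen after its values were seen, at 1.71 (SE 0.804, limma adjusted p = 0.24).

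Of 21 myeloid transcription factors 3 were called lower in LL against WW and none higher (median -0.45), beside 1.92% of all genes called lower. Spi1 was not well above background in LL or LW and was at -3.89 and -3.44 in WL and at -4.33 and -4.03 in WW. By its bound it was at least 1.95-fold lower in LL than in WW and at least 2.8-fold lower than in WL. Its calls (limma adjusted p = 0.0285 against WW and 0.0202 against WL) belong to the measured differences of -2.16 and -2.68. These differences use LL readings at background, and the bounds themselves were not tested. Gfi1, a repressor needed for granulocyte production, fell by 2.02 (SE 0.364, limma adjusted p = 0.0461), and Cebpa, which starts the granulocyte and monocyte programme and also serves alveolar type 2 cells, by 1.69 (SE 0.308, limma adjusted p = 0.0469). The median was the same with Spi1 at its bound.

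The list of inducers of the ligands held 19 genes. It took in interleukins and other cytokines, Toll-like receptors and their adaptor, and NF-kB genes together with feedback inhibitors of NF-kB. Of these genes 17 were tested and none passed limma's test in LL against WW. In that comparison 11 had an unadjusted p under 0.05, 8 of them higher (median 0.53), against 24.8% of all genes under that threshold in either direction. Relb, an NF-kB subunit, was at 2.92 and 2.98 in LL, 1.2 and 2.66 in WL, 0.96 and 1.07 in LW, and 1.15 and 1.09 in WW, with a difference between LL and WW of 1.83 (SE 0.435, limma adjusted p = 0.0833). Tnfaip3, the NF-kB feedback protein A20, differed by 2.27 (SE 0.553, limma adjusted p = 0.0873). Relb was high in both LL mice and in WL replicate 2, the mice in which Csf1 was also high. In WL against WW and in LW against WW no gene of the 3 lists passed limma's test. There 3 and 0 of them had an unadjusted p under 0.05, against 8.18% and 2.2% of all genes. Jak3 had the lowest p in WL against WW (0.98, SE 0.324, limma adjusted p = 0.486).

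**Figure D4:**
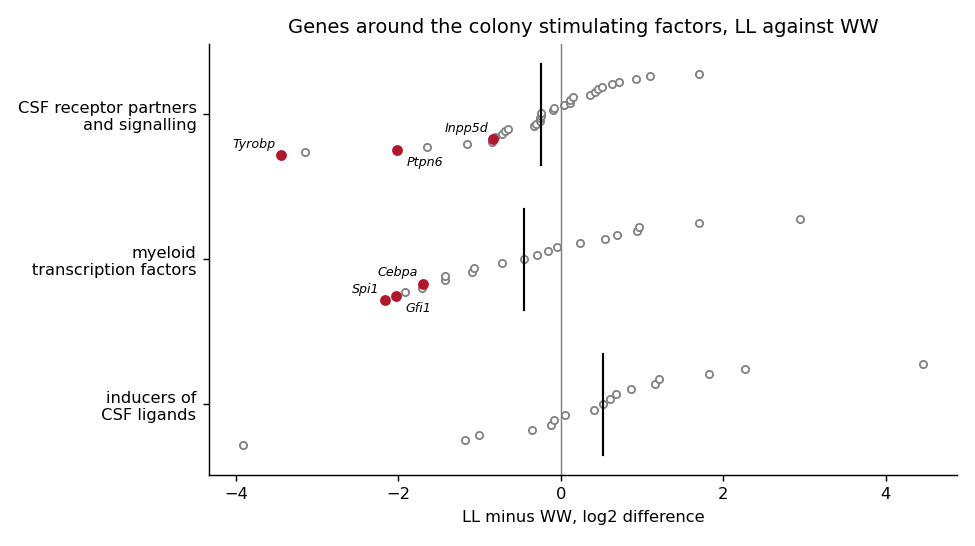
Difference between LL and WW (log2) of each tested gene of the 3 lists, 1 point per gene in order of size, with the list's median as a vertical bar; filled points passed limma's test at an adjusted p under 0.05. The 6 called genes are all lower in LL, and the medians are -0.25, -0.45 and 0.53.

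Markers of several cell types differed in the same comparison. Between LL and WW 5 of 12 alveolar macrophage markers and 9 of 16 markers of monocytes and recruited macrophages were called lower and none higher. Over all genes 1.92% were called lower and 1.21% higher in that comparison. The summed signal of the alveolar macrophage markers, in units of the array's 75th percentile, was 25.3 and 61.1 in LL, 175 and 148 in WL, 162 and 113 in LW, and 137 and 150 in WW. Chil3 gave 43.2% of this sum, and Siglecf was not well above background in LL. The sum of the monocyte list went the other way, 604 and 731 in LL, 363 and 571 in WL, 321 and 320 in LW, and 372 and 353 in WW, with 40.6% of it from Ly6c1, which endothelial cells also express. Ly6c2 read much like Ly6c1, at 8.08 and 8.39 in LL and 6.99 and 6.90 in WW, against 8.14 and 8.42 and 7.06 and 7.06. Ly6c1 and Ly6c2 were among only 3 of the 16 markers with a difference above 0 between LL and WW. The median difference of the list was -3.57 with Fcgr1, which was not well above background in LL, at its bound. Of the 8 dendritic cell markers 5 were called lower in LL and only 1 had a difference above 0. Cd209a and Cd207 were not well above background in LL, and Xcr1 was well above background in WL alone. The sum of the dendritic cell markers was 339 and 333 in LL, 314 and 250 in WL, 323 and 343 in LW, and 344 and 365 in WW, with 97.7% of it from Siglech. All 5 platelet markers were lower too, with a median of -3.71 with Gp9 and Gp1ba, which were not well above background in LL, at their bounds. Called lower as well were 2 of 5 T cell markers, 1 of 4 NK cell markers and 1 of 10 alveolar type 2 markers, while 1 of 4 mesothelial markers was called higher. At an unadjusted p under 0.05 in limma's test, 3 T cell, 4 NK cell and 7 alveolar type 2 markers were lower and 2 mesothelial markers higher. No alveolar type 2 marker had a difference above 0, and the median was -2.16. The alveolar type 2 sum was 674 and 794 in LL, 1602 and 630 in WL, 1780 and 1584 in LW, and 1748 and 1868 in WW. Sftpc gave 43.1% of it. None of the 3 B cell markers passed, with all 3 at an unadjusted p under 0.05 and lower, against 24.8% of all genes under that threshold in either direction. The part of these cells in the lower Csf2ra and Csf1r was not tested, and in whole lung fewer cells of a type and less RNA per cell cannot be told apart.

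The genes whose pattern over the 8 arrays was most like that of Csf2ra and Csf2rb, the members whose group means spanned more than 2 log2 units, were sought among 15977 named genes by the root mean square difference after centring each gene. For Csf2ra these were Irf5 (0.13), a transcription factor of macrophage inflammation, Prune2 (0.17) and the calcium-activated potassium channel Kcnn4 (0.20). Irf5 had a level of -1.82 and -1.82 in LL, 0.25 and 0.58 in WL, -0.31 and -0.30 in LW, and 0.09 and 0.04 in WW. For Csf2rb they were Csf2rb2 (0.10), Pik3cg (0.25), a lipid kinase of leukocytes, and Tnfrsf26 (0.26). Tnfrsf26 fell near or under the dimmest detected signal in 1 LL mouse, where its level has no exact order. These are likenesses over 8 arrays of 4 groups and give no test.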

How the data were processed

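One-colour Agilent arrays were hybridised with Cy3-labelled total RNA of 8 lungs. Agilent Feature Extraction 11.5.1.1 made the deposited intensity values, per the submitters' processing notes. They are background-subtracted without scaling between arrays, per the file headers. The deposited log2 table equals the values computed here apart from a shift per array under 0.01, and was used as an alternative. Probe positions are on mm9, per the file headers.

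Non-uniform spots (0 to 4 per array) were dropped and spots of a probe averaged, and no spot was saturated. Values were taken to log2 minus each array's 75th percentile. A probe was kept (39602 were) if some group had it well above background on both of its arrays, and the brightest kept probe stood for a gene (25830 genes).

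The test was limma 3.58.1 (R 4.3.3) with 4 group means on 8 arrays, which left 4 residual beside 2.19 prior degrees of freedom. P-values were adjusted by Benjamini and Hochberg's method across the 25830 genes, separately in each of 7 comparisons, and called under 0.05. Named are all 8 genes, up to 4 called genes of a list or else the 2 of lowest p, the 3 genes of most similar pattern, and Lyz2, except for 1 list gene that is not reported here. A fold against a group at background is a bound: the brighter group's mean against the dimmest detected signal, or the dim probe's own value if higher, per array. The genes and lists were chosen with earlier results of these data known. Across all genes the replicate numbers showed little pairing of the mice (correlation of deviations from group means -0.10 to 0.19 over the 6 pairs of groups). The summed neutrophil markers were nevertheless higher in replicate 2 in all 4 groups, so a shared replicate effect on single genes is not excluded. The number of arrays limits the precision. The alternatives were another background correction, 2 other scalings, 2 other filters, averaging the probes of a gene, the deposited table, a replicate block, a variance model with an intensity trend, outlier spots left out, the compared arrays alone, and leaving out arrays. Figures were drawn with Python 3.11.15 and matplotlib 3.10.9.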

Additional observations from a re-analysis of the deposited data

Results flagged for a closer look

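Csf3 lies outside the comparisons because its probe passed background on both arrays of no group, yet it was well above background on LL replicate 2, at an intensity of 96.12, and on WL replicate 2, at 35.87. The other 6 arrays read 1.18 to 5.70, all at background, and included both WW mice and both LW mice. On the log2 scale the levels were -5.71 and -1.33 in LL, -7.50 and -3.18 in WL, -6.86 and -5.47 in LW, and -6.22 and -7.47 in WW. WL replicate 2 was also the WL mouse with the higher Csf1, Csf2 and Relb. The difference was not tested.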

How the results depend on the processing

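Of the single-gene values recomputed for LL, WL and LW against WW and for LL against WL, 534 kept their side of the threshold (values near 0 that never passed could change sign among these), 8 newly passed, 27 no longer passed and 1 called value turned sign: Csf1r in LL against WL, 0.0092 with the dimmer probe (chosen after seeing the data). Most of the 534 were not called to begin with, so that count says little about the calls. The Csf1r call was kept 12 times and lost 9 times in LL against WW. In LL against WL it was kept 7 times and lost 12 times, beside the turned sign. The Csf2ra call was kept 16 times and lost 4 times against WW, and kept 17 times and lost 2 times against WL. The count of called genes among the 7 was 2 in LL against WW, and it was 1 (Csf2ra) without a detection filter and 1 with the mean of a gene's probes. In LL against LW it was likewise 1 without the filter and 1 with the mean of probes, against 2. In LL against WL it was 1 with quantile normalisation, 1 with the percentile over probes detected on all arrays, 1 without the filter, 1 with the mean of probes, 1 with the replicate number as a block (Csf1r at an adjusted p of 0.0503), and 0 with the compared arrays alone, against 2. The block changed no other call among the 7 genes. Over all genes LL against WW had 447 calls with the block and 808 without it. Leaving out 1 array at a time gave 0 to 3 called genes in LL against WW, 0 to 3 in LL against WL, 0 to 3 in LL against LW, 0 to 1 in WL against WW, 0 in LW against WW, 0 to 2 in WL against LW, and 0 to 1 in the interaction. The call in WL against WW (Csf1), the 2 in WL against LW (Csf1 and Csf2ra) and the one in the interaction (Csf2ra) each came without 1 WL mouse, replicate 1 in the first pair of comparisons and replicate 2 in the interaction. Without WL replicate 2, Csf1 also passed in LL against WL (1.48, adjusted p 0.026), where 19.7% of all genes passed. The lone mouse was then assumed to vary like the other groups, and all genes called in LL against WW ranged from 4 (0.0155%), without LL replicate 1 or WW replicate 1, to 8285 (32.1%), without a WL mouse. In LL against LW both calls were lost without any 1 LL, LW or WW array. The cause of these changes was not tested.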
